A study of Mus musculus with 21 samples.

Results

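Microglia are the resident immune cells of the brain, and medium in which they have been kept carries what they release as well as what was added to it. The comparison described here asks how nerve-like cells differ after medium from microglia exposed to acrylamide and medium from unexposed microglia. Transcripts were counted in 1C11NE cells, which are 1C11 neuroectodermal stem cells of the 129 mouse strain, a single line, differentiated over 12 days along a noradrenergic neuronal program. The ACR-CM group had received, for 24 h, conditioned medium of BV2 cells that had been exposed to 1 mM acrylamide. The PBS-CM group had received conditioned medium of BV2 cells given the vehicle, phosphate-buffered saline (PBS). BV2 is an immortalised mouse microglial line. All genes that passed a filter on low counts were included, 12550 of 24263 gene symbols, in these 6 of the 21 libraries of the series (3 per group). Further groups of 1C11NE cells served for reference, each with 3 libraries and 24 h of treatment. They were PBS (vehicle), ACR (1 mM acrylamide given directly) and PBS-CM+ACR (the PBS-CM medium with 1 mM acrylamide added). Whether acrylamide was still present in the ACR-CM medium is not said in the labels, so acrylamide carried over and substances released by the microglia cannot be told apart here. Nothing states that the libraries of a group came from separate cultures, so p-values measure only a spread among libraries, which may be technical. That spread was estimated over the 15 libraries of 1C11NE together, of which these 6 are a part.

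Acrylamide is an electrophile that reacts with thiols such as glutathione. Cells meet electrophiles with a program run by the transcription factor NRF2, which KEAP1 holds in check in resting cells. NRF2 pairs with small MAF proteins at antioxidant response elements in DNA and raises genes for glutathione synthesis and conjugation, thioredoxin, quinone reduction, NADPH supply and iron storage.

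The 6 libraries held 4362112 to 5979286 counts. PBS-CM replicate 1 stood apart from the other 5. On the first principal component of these 6 libraries, which held 47.4% of the variance, it lay at -59.1 and the others between -3.44 and 28.4. On the second component, with 23.2%, PBS-CM replicates 1, 2 and 3 lay at 1.29, 19.8 and 28.5 and the ACR-CM replicates at -17.4, -29.7 and -2.39. The groups did not overlap there, but PBS-CM replicate 1 and ACR-CM replicate 3 lay close together. Ribosomal protein transcripts took 7.57% of the counts in PBS-CM replicate 1, 12.7% and 14.4% in PBS-CM replicates 2 and 3, and 8.93 to 12.5% in ACR-CM. Levels are given below in CPM, in which each count is divided by the scaled total of its library and set to the same fixed total. Several defining neuronal markers were at or near 0 in all 6 libraries, among them Nefl, Nefh, Snap25, Stmn2 and Syp, whereas Ncam1, a neural cell adhesion molecule, lay between 430.3 and 850 CPM. Th and Dbh, the enzymes that define noradrenergic cells, were on the list of noradrenergic identity below, and their own values are not reported here.

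In ACR-CM, 56 genes were higher and 60 lower than in PBS-CM at an adjusted p under 0.05 in edgeR's quasi-likelihood test (0.446% and 0.478% of the genes tested, 0.924% together). An unadjusted p under 0.05 was reached by 1614 genes. In all 116 called genes the 3 libraries of one group lay outside the range of the other. The genes were called for a difference between these same libraries, so this separation is no separate evidence. Its share over all genes tested is not given here. Of the 56 higher genes, 24 belonged to 8 lists of antioxidant, detoxifying, NADPH and iron genes and 7 to cholesterol synthesis. The 8 lists together held 110 of the 12550 genes tested, and the cholesterol list 24. Among single lists, the redox list with most higher genes was glutathione transferases, with 6 of 20. No single list held more than 3 of the lower genes, and lists with lower genes were not pooled. In 26 of the 56 higher genes the call stayed whichever of the 6 libraries was left out, against 4 of the 60 lower genes. These were Thy1, Ccnd1, Prg4 and Akr1b7. PBS-CM replicate 1 held the lowest of the 6 values in 38 of the 56 higher genes and the highest in 45 of the 60 lower genes. Without it, 36 of the 56 and 20 of the 60 were still called and none of the 116 changed sign. A fit to the 6 libraries alone called 15 genes, 10 higher and 5 lower.

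The defence against electrophiles and oxidants was covered by 8 lists. Together they held 110 tested genes, of which 24 were higher and 1, Akr1b7, was lower (edgeR). Their median log2 change was 0.33, and 88 of 110 changes lay above 0, while the median of all 12550 genes was -0.03. Without PBS-CM replicate 1 these medians were 0.20 and 0.01.

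**Figure D1:**
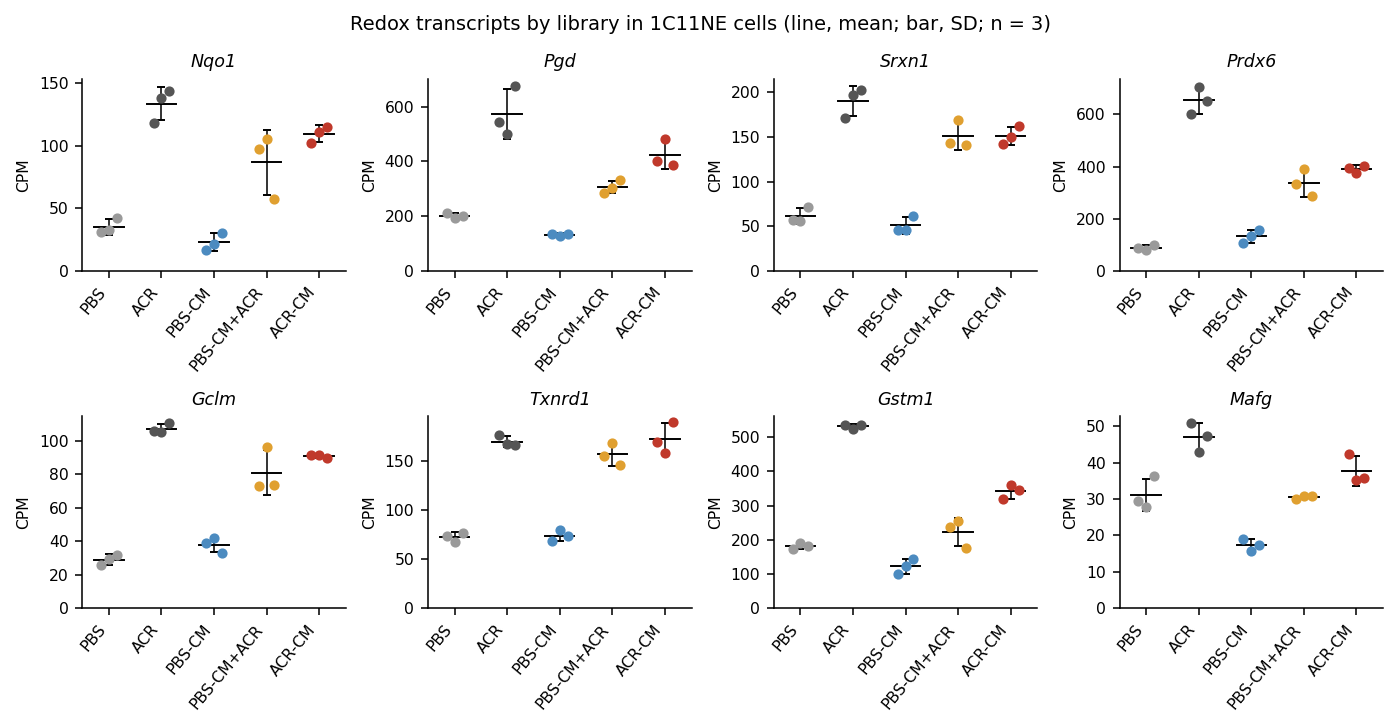
Levels (CPM, linear axes from 0) of 8 redox transcripts in each library of the 5 groups of 1C11NE cells, with the mean as a line and the SD as a bar (n = 3). In each panel the 3 ACR-CM libraries lie above the 3 PBS-CM libraries, for Nqo1 at 102 to 115 against 16.4 to 30.5 CPM. The PBS-CM libraries lie below the PBS libraries for Nqo1, Pgd, Gstm1 and Mafg and above them for Prdx6 and Gclm. They overlap with them for Srxn1 and Txnrd1.

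Nqo1, a quinone reductase and a standard readout of NRF2, had the largest relative increase among higher genes with at least 10 CPM. It stood at 16.4, 21.8 and 30.5 CPM in the PBS-CM libraries and at 102, 111 and 115 CPM in the ACR-CM libraries. The lowest ACR-CM library was well above the highest PBS-CM library. The increase was 4.77-fold (log2 2.25 ± 0.25 SE, n = 3 per group, edgeR adjusted p = 0.00051). Other enzymes that act on carbonyl groups or quinones rose with it. Esd, the S-formylglutathione hydrolase of formaldehyde removal, rose from 226.9, 363 and 456 to 1072, 1050.4 and 1111 CPM (log2 1.63 ± 0.24), and Cbr3, a carbonyl reductase, rose by 1.37 ± 0.18. Of the 23 tested members of the list on quinone, carbonyl and aldehyde detoxification, 4 were higher and 1 was lower, with a median of 0.39, or 0.23 without PBS-CM replicate 1. The fourth increase, of the glucuronosyltransferase Ugt1a6a (1.10 ± 0.24), was lost without any 1 of the 6 libraries, at adjusted p from 0.055 to 0.157. Aldh3a1, an aldehyde dehydrogenase, did not pass, at 14.5, 7.67 and 10.0 CPM in PBS-CM and 32.1, 31.1 and 28.8 CPM in ACR-CM (log2 1.52 ± 0.35, edgeR adjusted p = 0.053). The PBS libraries held 47.95, 126 and 86.55 CPM of Aldh3a1, above every ACR-CM library.

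Glutathione is the small thiol that electrophiles consume. Gclm, which encodes the regulatory subunit of glutamate-cysteine ligase, the limiting step of its synthesis, stood at 39.0, 41.8 and 32.9 CPM in PBS-CM and at 91.6, 91.6 and 89.8 CPM in ACR-CM (log2 1.26 ± 0.16, edgeR adjusted p = 0.00097). The ACR-CM libraries were nearly equal and lay well above every PBS-CM library. Gss, which completes glutathione, rose by 1.36 ± 0.18, and Gsr, which reduces oxidised glutathione, by 0.95 ± 0.16. These were the 3 higher genes among 11 tested in the list on glutathione synthesis and cystine import, whose median was 0.58. Slc7a11, the cystine importer, stood at 258, 141 and 125 CPM in PBS-CM and at 466, 617 and 414 CPM in ACR-CM. The groups did not overlap, yet the difference of 1.52 ± 0.36 did not pass (edgeR adjusted p = 0.055). Gclc, the catalytic subunit that partners Gclm, was at 0.91 ± 0.23 and did not pass either (edgeR adjusted p = 0.076).

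Glutathione transferases attach glutathione to electrophiles, and 6 of 20 tested were higher with 0 lower (median 0.59). Gstm1 rose from 101, 123 and 145 to 318, 360 and 345 CPM (log2 1.47 ± 0.20, edgeR adjusted p = 0.0012). Gstp1 and Gstp2 rose by 1.39 ± 0.24 and 1.16 ± 0.19, and because these are near copies that share reads, the split between them is uncertain. Gsta4, which acts on the lipid aldehyde 4-hydroxynonenal, changed by 1.65 ± 0.29 and lost its call without ACR-CM replicate 1 (edgeR adjusted p = 0.051). Gsta3 and Gsta2 had 0 counts in all 3 PBS-CM libraries and 6, 8 and 9 and 9, 3 and 8 counts in the ACR-CM libraries. Set against a floor of 3 counts over the PBS-CM group they were at least 7.74-fold and at least 6.73-fold higher. The call of Gsta2 was lost without any of the PBS-CM libraries or without ACR-CM replicate 1 or 3, at adjusted p from 0.068 to 0.139. Members of this family resemble each other in sequence, so their counts are uncertain as well.

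Peroxiredoxins remove peroxides and are restored by sulfiredoxin and by the thioredoxin system. Prdx6, the member that reduces phospholipid peroxides with the help of glutathione, rose from 107, 133 and 158 to 395, 375 and 404 CPM (log2 1.56 ± 0.20). Srxn1, which encodes sulfiredoxin, stood at 46.1, 45.4 and 61.5 CPM in PBS-CM and at 142, 150 and 162 CPM in ACR-CM (log2 1.57 ± 0.18, edgeR adjusted p = 0.00053). The reductase Txnrd1, which recharges thioredoxin, rose by 1.22 ± 0.16. All 14 tested members of the list lay above 0, 3 of them called, with a median of 0.32. This median was 0.15 without PBS-CM replicate 1 and 0.53 without PBS-CM replicate 3. Prdx1 (0.84 ± 0.25) and Txn1 (0.31 ± 0.32) did not pass. By contrast, none of 7 glutathione peroxidases, catalase and superoxide dismutases was called by edgeR, and their median was -0.05. The sign of that median depended on the libraries, at -0.23 without PBS-CM replicate 1 and 0.17 without PBS-CM replicate 3. In that list 2 genes had an unadjusted p under 0.05, DESeq2 called 2 and limma-voom 0. Catalase (Cat) was at 0.80 ± 0.21 (edgeR adjusted p = 0.078).

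NADPH is the reductant for these systems, and the oxidative branch of the pentose phosphate pathway makes much of it. Pgd, its second dehydrogenase, stood at 135, 127 and 134 CPM in PBS-CM and at 401, 482 and 389 CPM in ACR-CM. The increase was 3.21-fold (log2 1.68 ± 0.19, edgeR adjusted p = 0.00051). G6pdx, the first dehydrogenase, stood at 15.8, 13.5 and 17.2 CPM in PBS-CM and at 34.3, 31.8 and 34.0 CPM in ACR-CM (log2 1.11 ± 0.17). Taldo1, a transaldolase of the branch that returns carbon to glycolysis, rose by 1.29 ± 0.20. The 3 were the called members among 11 (median 0.29). Malic enzyme Me1 (0.66 ± 0.16) and the transketolase Tkt (0.57 ± 0.15) did not pass, at edgeR adjusted p of 0.056 and 0.097.

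Among 12 tested genes of heme breakdown and iron storage, 3 were higher and 0 lower, with a median of 0.55. Ftl1, the light chain of the iron store ferritin, stood at 1509, 2031 and 2305 CPM in PBS-CM and at 4962, 4765 and 4953 CPM in ACR-CM (log2 1.33 ± 0.22). Blvrb, a biliverdin reductase, rose by 1.21 ± 0.20. Pir, an iron-binding nuclear protein, changed by 1.30 ± 0.28 but lost its call without PBS-CM replicate 1 or 2 or any ACR-CM library, at adjusted p from 0.065 to 0.168. The heavy chain Fth1 (0.78 ± 0.20) and Hmox1, the inducible heme oxygenase (0.55 ± 0.21), did not pass, with edgeR adjusted p of 0.075 and 0.26. Hmox1 stood at 128, 194 and 205 CPM in PBS-CM and at 289, 246 and 239 CPM in ACR-CM.

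Of the regulators, Nfe2l2, which encodes NRF2, stood at 75.5, 91.7 and 93.6 CPM in PBS-CM and at 94.4, 89.7 and 101 CPM in ACR-CM (log2 0.13 ± 0.18, edgeR adjusted p = 0.80). The groups overlapped. Keap1 (-0.11 ± 0.26) and Bach1, a repressor at the same DNA elements (-0.18 ± 0.20), did not pass, and the sign of Keap1 turned without PBS-CM replicate 1 (0.20). Mafg, a small MAF partner of NRF2, rose from 18.98, 15.7 and 17.2 to 42.3, 35.1 and 35.7 CPM (log2 1.13 ± 0.16, edgeR adjusted p = 0.0016). Sqstm1, a receptor of selective autophagy that binds KEAP1, changed by 0.79 ± 0.17. Its call was lost without PBS-CM replicate 2 or 3 or any ACR-CM library, at adjusted p from 0.068 to 0.122.

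Promoter windows of RefSeq (GRCm38.p6, 250 bases before to 50 after each gene's start) were searched on both strands for TGACNNNGC, the core of the antioxidant response element. Of the 24 higher redox genes, 21 had a window and 8 of these held the core (38.1%), compared with 14.0% of all 27025 genes with a window. Over all called genes with a window, the core was held by 10 of 45 higher genes (22.2%) and 8 of 41 lower genes (19.5%). A match is a run of letters and no evidence of binding, and elements outside the window were not searched. The 4 windows below belong to genes whose increase held with any library left out, with the matched core in capitals as it reads on the gene's strand. In these 4 the core lies on the opposite strand to the gene. It starts 134 bases before the start in Gclm, 92 in Txnrd1, 57 in G6pdx and 222 in Mafg. Pgd and Gsta3, whose calls also held with any library left out, had the core on the gene's own strand. In Pgd it lay past the gene's start, and the windows of Pgd and Gsta3 are not printed. The windows are chr3:122245307-122245606 on the plus strand for Gclm, chr10:82858956-82859255 on the plus strand for Txnrd1, chrX:74428831-74429130 on the minus strand for G6pdx and chr11:120633498-120633797 on the minus strand for Mafg, each printed 5′ to 3′ on the gene's strand.
Gclm: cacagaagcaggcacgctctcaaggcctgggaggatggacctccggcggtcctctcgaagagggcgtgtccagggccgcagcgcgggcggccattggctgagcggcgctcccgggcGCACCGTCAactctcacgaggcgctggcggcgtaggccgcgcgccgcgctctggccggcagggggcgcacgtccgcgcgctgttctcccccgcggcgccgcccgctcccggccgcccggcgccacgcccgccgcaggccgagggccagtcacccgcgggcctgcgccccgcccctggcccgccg
Txnrd1: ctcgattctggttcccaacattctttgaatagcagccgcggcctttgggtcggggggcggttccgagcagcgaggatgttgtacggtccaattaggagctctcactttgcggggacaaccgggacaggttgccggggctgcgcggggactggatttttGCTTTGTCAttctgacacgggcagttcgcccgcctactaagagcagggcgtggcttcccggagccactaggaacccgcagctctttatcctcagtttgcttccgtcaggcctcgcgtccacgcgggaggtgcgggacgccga
G6pdx: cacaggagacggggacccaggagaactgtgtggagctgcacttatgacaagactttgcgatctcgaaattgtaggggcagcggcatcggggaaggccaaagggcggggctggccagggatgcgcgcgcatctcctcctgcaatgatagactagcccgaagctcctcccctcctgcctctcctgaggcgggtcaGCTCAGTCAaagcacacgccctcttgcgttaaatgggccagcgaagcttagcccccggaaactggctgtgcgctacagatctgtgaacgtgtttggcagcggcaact
Mafg: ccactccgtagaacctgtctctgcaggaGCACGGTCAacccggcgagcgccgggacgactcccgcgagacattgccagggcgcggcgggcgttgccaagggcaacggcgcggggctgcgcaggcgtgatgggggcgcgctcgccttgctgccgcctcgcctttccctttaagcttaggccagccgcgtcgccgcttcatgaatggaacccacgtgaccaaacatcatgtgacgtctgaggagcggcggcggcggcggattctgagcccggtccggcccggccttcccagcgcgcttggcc

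Cholesterol synthesis was the largest group of higher genes outside the redox lists. The pathway builds sterols from acetyl-CoA through mevalonate and is raised by the SREBP transcription factors when sterols are low. Of 24 tested genes, 7 were higher and 0 lower in edgeR, 22 lay above 0 and the median was 0.62. Msmo1, a sterol demethylase, stood at 8.32, 6.31 and 10.4 CPM in PBS-CM and at 25.5, 25.4 and 23.8 CPM in ACR-CM. The increase was 2.99-fold (log2 1.58 ± 0.20, edgeR adjusted p = 0.00097). Idi1, an isomerase that makes the isoprene building block, rose from 11.1, 12.6 and 14.0 to 32.3, 26.1 and 30.7 CPM (log2 1.24 ± 0.20). Acat2, which condenses acetyl-CoA at the entry of the pathway, rose by 1.06 ± 0.16. These 3 kept their call with any library left out.

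Other called genes of the pathway were less firm. Fdps, the farnesyl diphosphate synthase, changed by 1.10 ± 0.21 and lost its call without PBS-CM replicate 2 or any ACR-CM library, at adjusted p from 0.0501 to 0.0662. Cyp51, another sterol demethylase, changed by 0.89 ± 0.18 and lost it without PBS-CM replicate 1 or 3 or ACR-CM replicate 1 or 3 (0.068 to 0.107). Insig1, a sterol sensor that restrains SREBP, changed by 0.78 ± 0.15 and lost it without PBS-CM replicate 1 or 2 or ACR-CM replicate 1 or 2 (0.0501 to 0.0775). Srebf2 (-0.44 ± 0.30), which encodes the main SREBP of this pathway, did not pass. It stood at 901, 539 and 458 CPM in PBS-CM replicates 1, 2 and 3 and at 426, 507 and 470 CPM in ACR-CM. The groups overlapped, and PBS-CM replicate 1 was far above the rest. Of the 7 called genes, 5 had a promoter window, and none of these held TCACNCCAC, the core of the sterol regulatory element, which 1.44% of all genes' windows held. In fatty acid synthesis, 1 of 15 was higher (median 0.45). It was Fasn, the fatty acid synthase, which changed by 1.29 ± 0.29 and lost its call without PBS-CM replicate 2 or 3 or any ACR-CM library (0.0735 to 0.19). Abca1, which exports cholesterol, changed by 1.83 ± 0.39 and lost its call without the same libraries (0.0735 to 0.169).

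Other higher genes stood outside these pathways. Lipn, a member of the acid lipase family, stood at 38.0, 60.7 and 64.9 CPM in PBS-CM and at 171, 145 and 177 CPM in ACR-CM. Its increase of 1.59 ± 0.22 (edgeR adjusted p = 0.0015) held with any library left out. Gbe1, the branching enzyme of glycogen synthesis, changed by 1.66 ± 0.30 and lost its call without PBS-CM replicate 2 or ACR-CM replicate 2 (adjusted p 0.0647 and 0.0574). Asl, an enzyme of arginine synthesis and the urea cycle, and Tlcd1, which bears on membrane lipid composition, were singled out after their values were seen because they too held with any library left out. Asl stood at 8.96, 9.38 and 10.2 CPM in PBS-CM and at 18.9, 21.9 and 19.9 CPM in ACR-CM (log2 1.08 ± 0.17), and Tlcd1 rose by 1.03 ± 0.16.

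**Figure D2:**
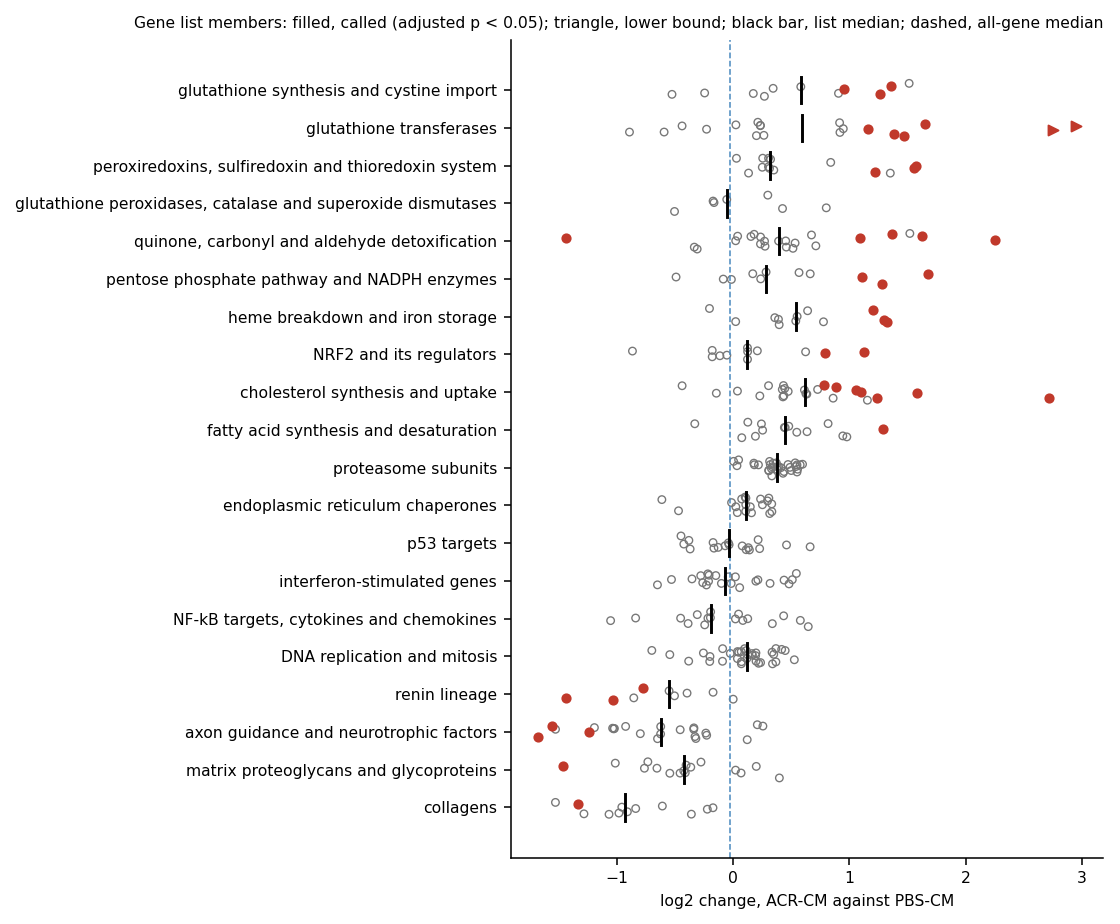
Log2 change of ACR-CM against PBS-CM for each tested member of 20 gene lists. Filled points passed the test, triangles are lower bounds for Gsta3 and Gsta2, Gsta1 (also 0 in PBS-CM) is not drawn, black bars are list medians and the dashed line is the median of all genes. Called points on the right belong to redox and sterol lists and, for Fasn, to fatty acid synthesis. Called points on the left belong to the lower lists together with Akr1b7.

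Other stress programs gave no called gene. Among 31 proteasome subunits, 0 were called by edgeR and limma-voom and 1 by DESeq2, and 11 had an unadjusted p under 0.05. All 31 changes lay above 0, between 0.01 for Psmd3 and 0.60 for Psma5, with a median of 0.38 that was 0.21 without PBS-CM replicate 1. Of 23 ATF4 targets, 20 heat shock proteins and co-chaperones, 19 endoplasmic reticulum chaperones and 18 p53 targets, 0 were called (edgeR), and 6, 8, 1 and 3 had an unadjusted p under 0.05. Their medians were 0.09, 0.28, 0.11 and -0.04, and DESeq2 called 0, 2, 0 and 1 of them. With each of the 6 libraries left out in turn the medians ran from 0.01 (without PBS-CM replicate 2) to 0.14 (without ACR-CM replicate 3) for ATF4 targets and from -0.06 (without PBS-CM replicate 2) to 0.09 (without PBS-CM replicate 1) for p53 targets. Without PBS-CM replicate 3 they were 0.42 for heat shock proteins and 0.28 for the chaperones. The inflammatory lists gave the same count of 0. Of 17 NF-kB targets, cytokines and chemokines, 22 interferon-stimulated genes and 16 genes of MHC class I presentation, 5, 5 and 2 had an unadjusted p under 0.05, with medians of -0.19, -0.07 and -0.08, and DESeq2 called 1, 0 and 1. These 3 medians lay between -0.25 (without PBS-CM replicate 2) and -0.07 (without ACR-CM replicate 3), between -0.09 (without PBS-CM replicate 1) and -0.02 (without PBS-CM replicate 3), and between -0.12 (without PBS-CM replicate 3) and 0.02 (without PBS-CM replicate 1) with 1 library left out. By limma-voom 0 genes of these 7 lists were called. Outside the list on MHC class I presentation, H2-Q7 and H2-D4, genes of MHC class I type, were lower by edgeR and are described below.

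Among the lower genes, Thy1, a surface glycoprotein of neurons and of mesenchymal cells, stood at 40.3, 30.0 and 29.9 CPM in PBS-CM and at 10.6, 10.1 and 9.85 CPM in ACR-CM. The fall was 3.27-fold (log2 -1.71 ± 0.23, edgeR adjusted p = 0.0012), and the groups were widely separated. The PBS libraries held 14.3, 17.4 and 11.2 CPM of Thy1, below every PBS-CM library and nearer to ACR-CM. Ccnd1, the gene of cyclin D1, a driver of the G1 phase, stood at 19.4, 18.8 and 19.4 CPM in PBS-CM and at 5.50, 6.80 and 8.18 CPM in ACR-CM (log2 -1.49 ± 0.22, edgeR adjusted p = 0.0024). It was the 1 called gene among 19 D-type cyclins and G1 regulators (median -0.06, between -0.14 without ACR-CM replicate 2 and 0.05 without PBS-CM replicate 1). None of 34 genes of DNA replication and mitosis was called by edgeR or limma-voom and 1 by DESeq2, 5 had an unadjusted p under 0.05, and the median was 0.12, or 0.05 without PBS-CM replicate 1. Prg4, which encodes the lubricating glycoprotein lubricin, stood at 41.2, 33.4 and 35.9 CPM in PBS-CM and at 12.8, 13.6 and 13.6 CPM in ACR-CM (log2 -1.46 ± 0.20, edgeR adjusted p = 0.0015). Thy1, Ccnd1, Prg4 and Akr1b7 were the decreases that held with any library left out.

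**Figure D3:**
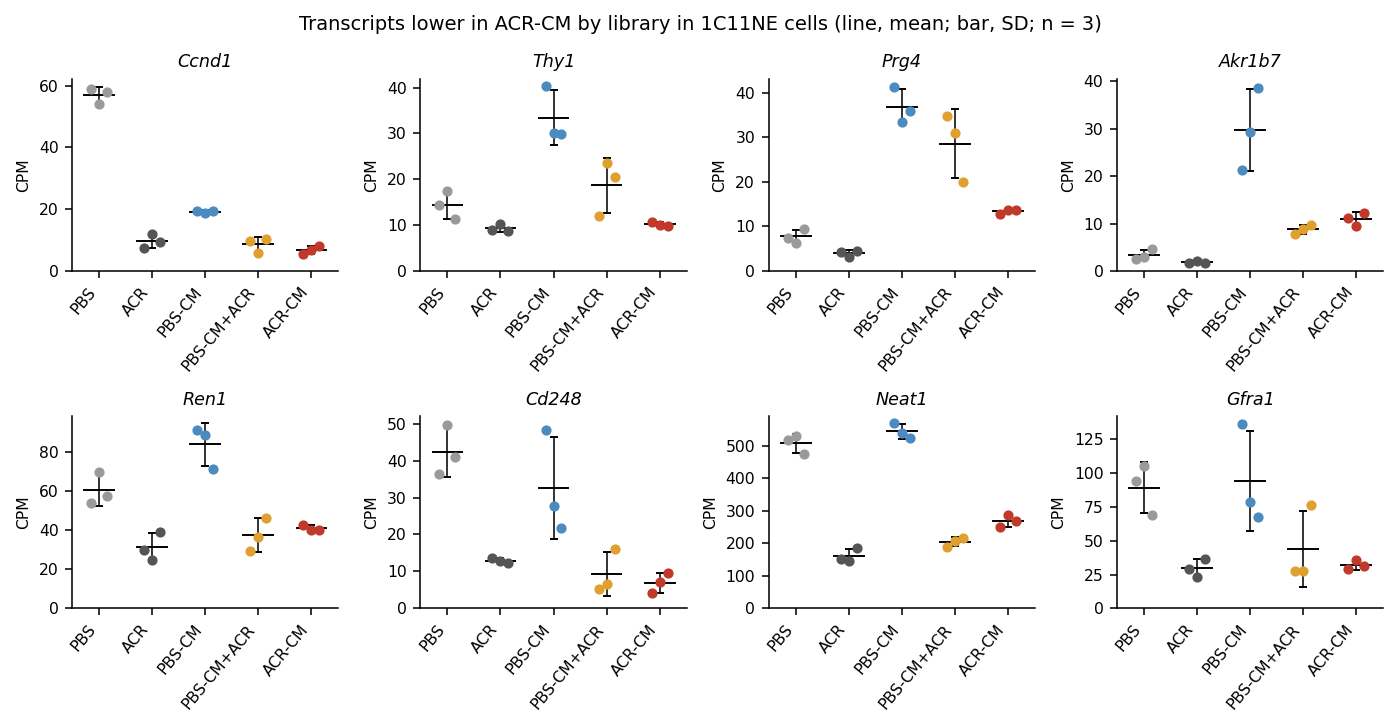
Levels (CPM, linear axes from 0) of 8 transcripts lower in ACR-CM in each library of the 5 groups of 1C11NE cells, with the mean as a line and the SD as a bar (n = 3). Ccnd1, Thy1, Prg4 and Akr1b7 (top row) held with any library left out, and Prg4 and Akr1b7 were at most 9.39 and 4.58 CPM in the PBS libraries.

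Akr1b7, an aldo-keto reductase that is also a marker of renin-producing cells in the mouse kidney, stood at 21.3, 29.3 and 38.7 CPM in PBS-CM and at 11.2, 9.43 and 12.3 CPM in ACR-CM (log2 -1.44 ± 0.23, edgeR adjusted p = 0.0050). Of 9 tested genes in the renin lineage list, 3 were lower and 0 higher, with a median of -0.55. Ren1, which encodes renin, stood at 91.5, 88.7 and 71.4 CPM in PBS-CM and at 42.7, 39.9 and 40.3 CPM in ACR-CM (log2 -1.03 ± 0.19). Every ACR-CM library lay below every PBS-CM library, but its call was lost without PBS-CM replicate 2 or any ACR-CM library, at adjusted p from 0.0657 to 0.0953. Etnk2, an ethanolamine kinase gene that lies next to Ren1 in the mouse genome, changed by -0.77 ± 0.17 and lost its call without PBS-CM replicate 2 or 3 or ACR-CM replicate 1 or 2 (0.0768 to 0.204). Ren2, a close copy of Ren1 whose reads may be split with it, did not pass (-0.55 ± 0.21, edgeR adjusted p = 0.26).

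Lower genes with products at the cell surface or in the matrix included Cd248 and a collagen. Cd248, a surface glycoprotein of pericytes and fibroblasts, stood at 48.2, 27.8 and 21.8 CPM in PBS-CM and at 4.21, 7.01 and 9.66 CPM in ACR-CM (log2 -2.22 ± 0.37, edgeR adjusted p = 0.0061). It was lost without ACR-CM replicate 1 (0.0662). All 12 tested collagens lay below 0, with a median of -0.93, and 1 was called. It was Col6a2 (-1.33 ± 0.27), lost without PBS-CM replicate 1 or 2 or ACR-CM replicate 1 or 3 (0.0539 to 0.18). The collagen median was -0.58 without PBS-CM replicate 1, with 0 called. Col1a2, a chain of type I collagen, stood at 2463, 1413 and 1162 CPM in PBS-CM replicates 1, 2 and 3 and at 853, 1138 and 694 CPM in ACR-CM (-0.91 ± 0.35, edgeR adjusted p = 0.27). Of 16 tested matrix proteases and inhibitors, 1 was higher, 1 was lower and 15 lay below 0 (median -0.47, or -0.32 without PBS-CM replicate 1). The lower one was Timp3, an inhibitor of metalloproteinases (-1.68 ± 0.37), and the higher one Plaur, the urokinase receptor (1.17 ± 0.24). Timp3 was lost without any 1 of the 6 libraries (0.0647 to 0.186), and Plaur without any of them but PBS-CM replicate 2 (0.0598 to 0.105). Of 16 matrix proteoglycans and glycoproteins, Prg4 was the 1 called, and the median was -0.42, or -0.15 without PBS-CM replicate 1.

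Genes of axon guidance and neurotrophic signalling had a median of -0.62 over 23 tested, or -0.41 without either PBS-CM replicate 1 or ACR-CM replicate 3, and 3 were lower. Tenm4, a teneurin that guides neuronal contacts, changed by -1.24 ± 0.24. Gfra1, the receptor subunit for the neurotrophic factor GDNF, stood at 136, 78.6 and 67.7 CPM in PBS-CM and at 28.8, 35.7 and 31.4 CPM in ACR-CM (-1.56 ± 0.35). Sema3f, a repulsive guidance cue, changed by -1.68 ± 0.38. All 3 calls were lost without PBS-CM replicate 1, at edgeR adjusted p of 0.0584, 0.161 and 0.173, and without any ACR-CM library. Gfra1 and Sema3f were also lost without PBS-CM replicate 2. Over these losses adjusted p ran from 0.0584 to 0.137 for Tenm4, from 0.0852 to 0.235 for Gfra1 and from 0.117 to 0.219 for Sema3f. Notch3, the Notch receptor of mural cells, fell from 18.8, 8.01 and 7.82 to 2.38, 4.82 and 3.16 CPM (-1.74 ± 0.37) and was lost without PBS-CM replicate 1 or any ACR-CM library (0.0574 to 0.223). Slc1a3, which clears glutamate from the extracellular space, changed by -0.87 ± 0.19 and was lost without PBS-CM replicate 2 or 3 or ACR-CM replicate 1 or 3 (0.0742 to 0.238).

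Neat1, the nuclear noncoding RNA that builds paraspeckles, stood at 570.2, 539 and 525 CPM in PBS-CM and at 249.96, 288 and 270.2 CPM in ACR-CM (log2 -1.02 ± 0.18, edgeR adjusted p = 0.0094). It was lost without ACR-CM replicate 1 or 3 (0.0951 and 0.0538). Aqp1, a water channel, changed by -1.21 ± 0.23 and was lost without PBS-CM replicate 1 or any ACR-CM library (0.0536 to 0.157). Smim1, a small membrane protein, changed by -1.24 ± 0.21 and was lost without ACR-CM replicate 1 or 2 (0.0662 and 0.0564). Npr2, the receptor of C-type natriuretic peptide, changed by -1.41 ± 0.32 and was lost without PBS-CM replicate 1 or 2 or any ACR-CM library (0.0749 to 0.235). Genes of MHC class I type that met the naming rule, H2-Q7 (-1.20 ± 0.25) and H2-D4 (-1.52 ± 0.31), have near copies, so their counts are uncertain. H2-Q7 was lost without any 1 of the 6 libraries (0.0501 to 0.15) and H2-D4 without any of them but PBS-CM replicate 3 (0.0741 to 0.151).

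Neuronal and noradrenergic genes gave few values to compare. In the list on neuronal cytoskeleton and synapse, 9 of 28 genes were tested, and Thy1 was the 1 called. The median was -0.44, or -0.32 without PBS-CM replicate 1. Of the 9 changes, 4 lay above 0 and 5 below, and 3 had an unadjusted p under 0.05 (edgeR). Ncam1 stood at 850, 546 and 581 CPM in PBS-CM and at 432, 430 and 443 CPM in ACR-CM. Of 19 genes of noradrenergic identity, 6 were tested and 0 were called by edgeR, DESeq2 or limma-voom, with 0 at an unadjusted p under 0.05. Maoa, which degrades noradrenaline, and Gch1, which makes the cofactor of its synthesis, were at 0.27 ± 0.22 and 0.25 ± 0.16. Maoa stood at 21.5, 30.7 and 29.9 CPM in PBS-CM and at 32.4, 32.9 and 33.8 CPM in ACR-CM.

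The summed level of microglia and myeloid markers was 76.6 to 93.6 CPM in PBS-CM and 94.8 to 109 CPM in ACR-CM. It was 6191 to 6979 CPM in the vehicle-treated BV2 libraries. A rise without overlap was also seen with direct acrylamide, from 60.5 to 70.1 CPM in PBS to 77.6 to 87.3 CPM in ACR. Aif1, Ptprc, Spi1 and the 3 C1q chains were at 0 in all 6 libraries. Of 21 markers, 6 were tested, 0 were called by edgeR, DESeq2 or limma-voom and 3 had an unadjusted p under 0.05. Csf1r, the receptor that microglia need to survive, stood at 1.49, 2.56 and 2.61 CPM in PBS-CM and at 9.90, 5.26 and 3.90 CPM in ACR-CM (log2 1.50 ± 0.46, edgeR adjusted p = 0.15). The groups did not overlap, and the part of these markers in the other differences was not tested.

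Acrylamide given directly offers a comparison with no library in common. ACR against PBS called 148 genes (1.18% of those tested), and 53 genes were called in both comparisons, 45.7% of the 116 and 35.8% of the 148. All 53 had the same direction, with 29 higher and 24 lower. All 116 genes had the same sign in ACR against PBS, while 68.6% of all tested genes did, and across all 12550 genes the log2 changes of the 2 comparisons had a Pearson r of 0.54. Genes are not independent replicates, and all libraries shared a common scaling and fit.

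**Figure D4:**
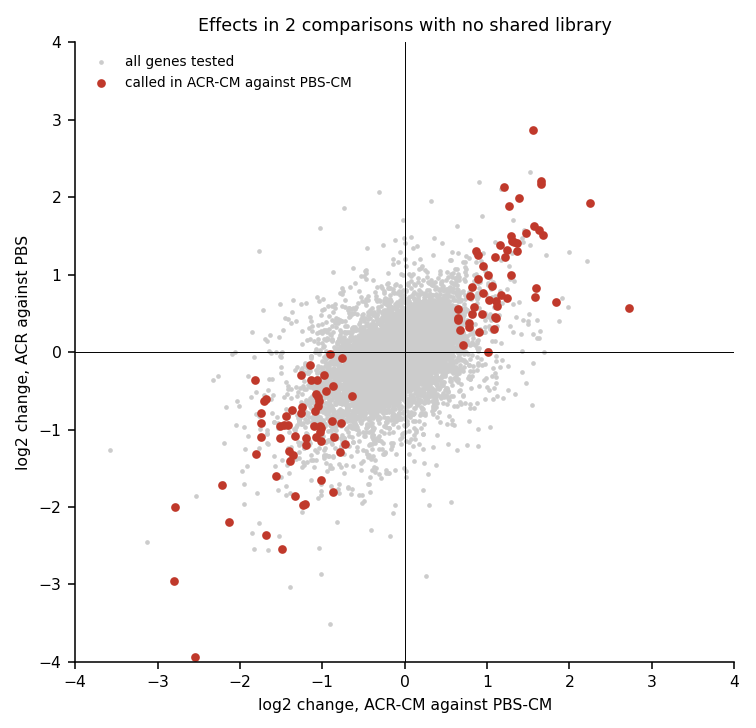
Log2 change of ACR-CM against PBS-CM (x) and of ACR against PBS (y) for each tested gene within 4 of 0 on both axes, with genes called in ACR-CM against PBS-CM in red. Red points lie where both changes have the same sign, and 2 called genes lie outside the plotted range.

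The difference between the 2 effects was tested as an interaction, ACR-CM minus PBS-CM less ACR minus PBS. By edgeR 0 genes passed (0% of those tested), and 338 had an unadjusted p under 0.05. DESeq2 called 3 and limma-voom 0. The 95% interval of this difference held 0 for 18 of the 24 higher redox genes, with a median half-width of 0.58 on the log2 scale. The difference lay below 0 for 14 of the 24. These genes had been called for the first of the 2 effects, so their differences are not free of that choice. For Nqo1 the difference was 0.33 (95% interval -0.37 to 1.03) and for Pgd 0.17 (-0.37 to 0.72). Prdx6 had one of the wider differences, rising by 1.56 with ACR-CM and by 2.87 with direct acrylamide (-1.31, interval -1.90 to -0.72, edgeR adjusted p = 1.00). Ccnd1 fell by 1.49 with ACR-CM and by 2.55 with direct acrylamide (1.06, interval 0.43 to 1.69). Thy1 fell by 1.71 with ACR-CM and was at -0.63 with direct acrylamide, where it did not pass (-1.08, interval -1.78 to -0.38). Neither Ccnd1 nor Thy1 passed (edgeR adjusted p = 1.00 for both), and intervals for single genes are not adjusted for the number of genes.

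Acrylamide added to medium of unexposed microglia called 47 genes against PBS-CM (0.375% of those tested). That comparison shares its PBS-CM libraries with the main one, so values are only set side by side. Nqo1 rose by 1.92 there and by 2.25 with ACR-CM, Srxn1 by 1.57 in both, Pgd by 1.21 and 1.68, and Gclm by 1.10 and 1.26. In cholesterol synthesis, 2 of 24 genes were higher with a median of 0.27, beside 7 and 0.62 with ACR-CM. Direct acrylamide against PBS gave 3 and 0.47. Prg4 was at -0.37 (edgeR adjusted p = 0.64) beside a fall of 1.46 with ACR-CM.

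ACR-CM was then set against PBS-CM+ACR directly. Of 12550 genes, 2 passed, both lower in ACR-CM (0.0159%, edgeR). Pmepa1, a membrane protein that dampens TGF-beta signalling, stood at 16.0, 15.3 and 23.6 CPM in PBS-CM+ACR and at 2.2, 2.41 and 4.65 CPM in ACR-CM (log2 -2.55 ± 0.29, adjusted p = 0.0014). The PBS-CM libraries held 4.48, 4.95 and 4.61 CPM, close to ACR-CM and below every PBS-CM+ACR library, and the difference of ACR-CM from PBS-CM did not pass (-0.59 ± 0.32, edgeR adjusted p = 0.45). A fit to the 6 libraries of the 2 groups alone called 0 genes, with 450 at an unadjusted p under 0.05.

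**Figure D5:**
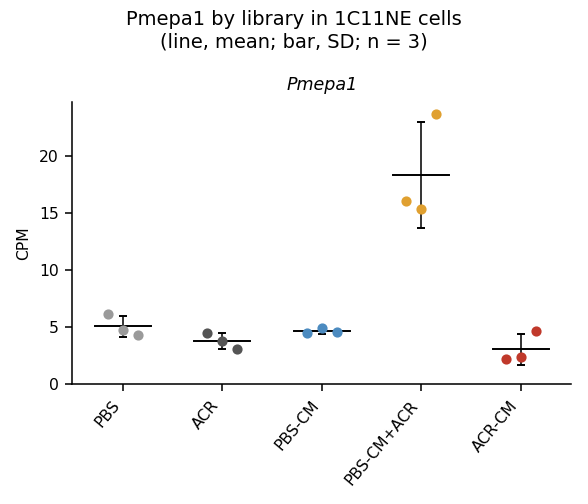
Level (CPM, linear axis from 0) of Pmepa1 in each library of the 5 groups of 1C11NE cells, with the mean as a line and the SD as a bar (n = 3). The 3 PBS-CM+ACR libraries, at 15.3 to 23.6 CPM, lie above all libraries of the other groups.

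In the same comparison the medians of the 8 redox lists lay between 0.04 and 0.30, with -0.01 for all genes. Of their 110 members, 81 lay above 0, and 0 passed by edgeR, DESeq2 or limma-voom, with 15 at an unadjusted p under 0.05, all 15 higher in ACR-CM. The median over the 110 was 0.17, and it was 0.08 without PBS-CM+ACR replicate 3. Without that library the lists on peroxiredoxins (-0.04), glutathione peroxidases (-0.06) and heme breakdown (-0.03) were below 0. The list on glutathione synthesis was at -0.06 without PBS-CM+ACR replicate 2, and that on NRF2 and its regulators at -0.03 without ACR-CM replicate 3. With any 1 of these 6 libraries left out, the medians of glutathione transferases, quinone and carbonyl detoxification and the pentose phosphate pathway lay above 0. The 24 redox genes higher than in PBS-CM had been called for a high level in the same ACR-CM libraries. Among them the 95% interval of the difference from PBS-CM+ACR held 0 for 17 and lay above 0 for 7. For Nqo1 the difference was 0.33 (95% interval -0.16 to 0.82), for Prdx6 0.21 (-0.20 to 0.63) and for Blvrb -0.06 (-0.47 to 0.35). For Gstm1 it was 0.62 (0.21 to 1.03), for Gss 0.55 (0.17 to 0.93), for Pgd 0.47 (0.08 to 0.86) and for Cbr3 0.42 (0.05 to 0.80). Gsta4, Ugt1a6a and the sparsely counted Gsta2 were the other 3. By edgeR the adjusted p of these 7 ran from 0.70 for Gstm1 to 0.91 for Cbr3 and Gsta4, and the intervals are not adjusted for the number of genes.

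The cholesterol list had a median of 0.28 between ACR-CM and PBS-CM+ACR, with 20 of 24 changes above 0. None was called by edgeR, DESeq2 or limma-voom, and 6 had an unadjusted p under 0.05. The median was 0.13 without ACR-CM replicate 2 and 0.18 without PBS-CM+ACR replicate 1. Msmo1 stood at 24.9 ± 0.96 CPM in ACR-CM and at 16.3 ± 1.76 CPM in PBS-CM+ACR (mean ± SD, n = 3), a log2 difference of 0.60 (interval 0.20 to 1.00, edgeR adjusted p = 0.70). Lipn stood at 164 ± 16.8 and 79.8 ± 16.3 CPM (1.04, interval 0.58 to 1.50, adjusted p = 0.31), and Prg4 at 13.3 ± 0.43 and 28.5 ± 7.70 CPM (-1.10, interval -1.54 to -0.66, edgeR adjusted p = 0.17). None of these 3 differences passed over all genes.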

How the data were processed

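RNA was measured in 15 libraries of 1C11NE cells and 6 of BV2 cells, grouped by sample title. Per the labels' protocols, oligo(dT) beads captured polyadenylated RNA, the whole-transcriptome library was cut by enzyme, and an Ion GeneStudio S5 read the products. The authors deposited raw read counts per gene symbol, whole numbers with no normalisation. Bowtie2 2.2.5 was among the tools, per the submitters' processing notes. The sources used here give no genome build, annotation, counting program or strand use, so near copies and overlapping genes are uncertain, and reads without molecular identifiers are not independent molecules.

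From these counts, edgeR 4.0.16 (R 4.3.3) scaled libraries by TMM, kept genes with filterByExpr and fitted the 15 libraries of 1C11NE together with a robust quasi-likelihood model, so the groups share an estimate of spread (biological coefficient of variation 0.211). Genes were called at a Benjamini-Hochberg adjusted p under 0.05 over 12550 genes. CPM values use TMM-scaled totals of tested genes. The SE is the log2 change divided by the square root of the F statistic. The fit was tested on simulated counts. Alternatives were DESeq2 1.42.0, limma-voom (limma 3.58.1), other size factors, no filter, the compared groups alone, a replicate block and each library left out. No pair of libraries of a group agreed within sampling noise.

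Genes were named by rule. The rule took the 20 largest increases and 20 largest decreases among called genes with at least 10 CPM in the higher group and no overlap, passing over predicted genes, and any called member of 48 gene lists. Members of the redox, regulator, noradrenergic and microglia lists could be named whether called or not, and a few uncalled members of other lists were named after their values were seen. The comparison and the lists were chosen with earlier results of these data known. Some genes that met the naming rule are not reported here.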

Additional observations from a re-analysis of the deposited data

Results flagged for a closer look

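Pmepa1 was singled out because the effect of medium from exposed microglia and the effect of acrylamide added to medium from unexposed microglia differed by a test of the difference itself. The first effect less the second was -2.55 on the log2 scale (edgeR quasi-likelihood test, adjusted p = 0.0014). The call held with any of the 6 libraries left out, and was not made when these 6 libraries were fitted alone.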

How the results depend on the processing

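ACR-CM against PBS-CM called 116 genes, and 459 with no filter on low counts, 305 by DESeq2 and 15 when its 6 libraries were fitted alone. The corresponding numbers were 13, 11 and 0 for ACR-CM against PBS-CM+ACR (2 in the main test), 136, 129 and 0 for PBS-CM+ACR against PBS-CM (47), and 351, 336 and 362 for ACR against PBS (148). The interaction, at 0 in the main test (338 genes with an unadjusted p under 0.05), had 1 with no filter and 3 by DESeq2. RLE size factors (127 calls in ACR-CM against PBS-CM) and limma-voom (108) kept each count within 1.5 times, and RLE moved the median log2 change by -0.01. Without the libraries PBS-CM 1 and PBS-CM+ACR 3, ACR-CM against PBS-CM called 174 genes, ACR-CM against PBS-CM+ACR 4, the interaction 1 and ACR against PBS 554, and Keap1 turned to 0.20. Leaving out each library in turn gave 35 (without ACR-CM replicate 1) to 93 calls in ACR-CM against PBS-CM, 2 to 3 in ACR-CM against PBS-CM+ACR, 11 to 73 in PBS-CM+ACR against PBS-CM, 71 to 109 in ACR against PBS and 0 in the interaction, and -0.28 to 0.20 for Keap1. The cause of these shifts was not tested. None of the 116 genes turned sign in any of these settings.

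Replicate numbers showed no clear pairing of the libraries. Deviations of same-numbered PBS-CM and ACR-CM libraries correlated at -0.13, -0.29 and 0.33, and PBS-CM replicate 1 correlated best with ACR-CM replicate 2 (0.47). The deviations were taken from the mean of each group's own 3 libraries, so these correlations cannot exclude a pairing. With the replicate number as a block, 56 genes were called in ACR-CM against PBS-CM and 21 in PBS-CM+ACR against PBS-CM. Depth limits transcripts under about 10 CPM, such as Gsta2, whose call rested on few counts.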
